A study of Mus musculus with 2 samples.

Results

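The genes of replication licensing and the DNA fork are the factors that mark origins, load and start the replicative helicase, copy both strands, join the new fragments and rebuild chromatin behind the fork. A list of 53 such genes was taken by gene symbol. It was drawn up with earlier results of these arrays in view, in which S phase genes stood high with *Flcn* siRNA, so the direction of its log2 ratios chose the members and is given below as a description with no test. Of the 53 genes, 52 had a probe set that names that gene alone, of 18193 genes named on the array in all, and *Chaf1a* was not analysed here. Values are linear signal intensities, and each gene is given by its brightest probe set. All 52 genes lay above the signal filter, a geometric mean of both arrays of at least 13.2, which is close to the median signal of an array. Of all genes on the array 56.5% passed it.

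The mouse macrophage line RAW264.7, whose cells can form osteoclasts, was transfected with *Flcn* siRNA or with scramble siRNA. *Flcn* encodes folliculin, a tumor suppressor that keeps the transcription factor Tfe3 out of the nucleus. In both groups the medium was changed to MEM with 10% FCS at 24 hours after transfection and total RNA was collected after 48 more hours, with no RANKL named in the labels. Each group was 1 sample on 1 Affymetrix mouse whole-genome expression array, the knockdown was transient and the methods name 1 siRNA sequence against *Flcn*. With 1 array a side there is no replicate check and no p-value, and precision is limited by the number of arrays. *Flcn* itself had signals of 206 with *Flcn* siRNA and 241 with scramble siRNA at its brighter probe set, a log2 ratio (*Flcn* siRNA over scramble siRNA) of -0.22. At the other probe set above the filter it had 145 and 209, a log2 ratio of -0.52. Neither reached 1.5-fold, the size at which a gene is called higher or lower below, whereas *Gpnmb*, a known Tfe3 target, had 2500 against 294.

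The macrophage markers matched the label, with 8 of 10 above the filter and summed signals of 21280 with *Flcn* siRNA and 21659 with scramble siRNA. *Mrc1* and *Cd86* lay under the filter, and 1 of the markers, the Fc receptor gene *Fcgr1*, was lower with *Flcn* siRNA (log2 ratio -1.44). Of 16 markers of T cells, B cells, fibroblasts and epithelium, 14 had a probe set and 2, *Col1a2* and *Epcam*, passed the filter. No signal among the 14 was above 18.5 with *Flcn* siRNA or 18.3 with scramble siRNA. The ratio of 3' to 5' signal, a measure of RNA integrity, was 1.34 with *Flcn* siRNA and 1.44 with scramble siRNA for actin, and 0.797 and 0.846 for Gapdh.

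A cell copies its genome once in each division. In G1 phase the origin recognition complex, with Cdc6 and Cdt1, loads the MCM2-7 ring onto DNA, which licenses the origin, and geminin blocks Cdt1 once S phase has begun. The kinase of Cdc7 and Dbf4, together with cyclin-dependent kinases, then turns the ring into the active CMG helicase, made of Cdc45, MCM2-7 and GINS, and polymerases, the sliding clamp PCNA and its loader follow at the fork. Many of these genes are transcribed in late G1 and S phase under E2F factors, which bind short sequences rich in T, C and G near the start site. A culture with more cells in S phase and a culture with more of these transcripts in each cell cannot be told apart in bulk RNA.

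Promoters show what many of these genes share apart from their signals. RefSeq promoter windows of GRCm38.p6, from 250 bases before to 50 bases after the start site, matched 44 of the 53 genes. An E2F-type sequence, searched as TTTCCCGC, TTTGGCGC or TTTCGCGC on either strand, was found in 19 of these 44 genes (43.2%). It was found in 2.12% of all 27025 genes with a window and in 4.44% of the 8444 such genes above the signal filter. The median G+C content of the windows was 62.7% in the members and 61.0% in all genes above the filter. The CCAAT box, CCAAT on either strand, was found in 25 of the 44 genes (56.8%), against 43.3% of genes above the filter. A sequence match is not a binding site, and its absence says only that these letters are not in the window. The E2F-type sequences can overlap each other on opposite strands, as in *Mcm5* and *Mcm6*.

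The stretches below show 6 genes that were higher with *Flcn* siRNA and carry an E2F-type sequence before the start site (*Mcm5*, *Mcm6*, *Orc1*, *Cdc6*, *Pola1* and *Uhrf1*). They also show 2 genes with such a sequence but small log2 ratios (*Orc3* and *Pole4*), and *Rpa3*, which has CCAAT boxes alone. With each gene given by its brightest probe set, *Rpa3* was the only member with a log2 ratio below 0 under the deposited scaling. Capitals mark E2F-type sequences and CCAAT boxes, each read 5′ to 3′ on the strand of the gene. Position -1 is the last base before the start site.
*Mcm5*, chr8:75109349-75109508, plus strand, positions -160 to -1: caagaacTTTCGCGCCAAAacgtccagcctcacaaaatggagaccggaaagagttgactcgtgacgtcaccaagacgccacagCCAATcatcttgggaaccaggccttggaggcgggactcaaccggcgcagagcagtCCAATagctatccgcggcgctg
*Mcm6*, chr1:128359706-128359825, minus strand, positions -120 to -1: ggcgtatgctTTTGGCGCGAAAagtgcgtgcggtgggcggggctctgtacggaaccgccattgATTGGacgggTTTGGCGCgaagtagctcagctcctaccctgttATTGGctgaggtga
*Orc1*, chr4:108579374-108579453, plus strand, positions -80 to -1: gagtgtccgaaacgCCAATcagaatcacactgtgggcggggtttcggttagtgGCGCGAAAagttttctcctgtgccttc
*Cdc6*, chr11:98908001-98908060, plus strand, positions -150 to -91: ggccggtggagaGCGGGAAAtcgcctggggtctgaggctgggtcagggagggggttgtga
*Pola1*, chrX:93632246-93632305, minus strand, positions -150 to -91: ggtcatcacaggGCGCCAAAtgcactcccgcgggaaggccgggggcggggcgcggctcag
*Uhrf1*, chr17:56304123-56304222, plus strand, positions -190 to -91: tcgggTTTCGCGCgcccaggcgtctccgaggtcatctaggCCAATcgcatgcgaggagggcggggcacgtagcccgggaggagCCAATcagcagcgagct
*Orc3*, chr4:34614943-34615002, minus strand, positions -60 to -1: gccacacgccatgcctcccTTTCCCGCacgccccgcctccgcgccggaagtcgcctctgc
*Pole4*, chr6:82652875-82652934, minus strand, positions -60 to -1: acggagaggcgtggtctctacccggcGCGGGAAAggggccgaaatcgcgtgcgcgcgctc
*Rpa3*, chr6:8259142-8259241, minus strand, positions -100 to -1: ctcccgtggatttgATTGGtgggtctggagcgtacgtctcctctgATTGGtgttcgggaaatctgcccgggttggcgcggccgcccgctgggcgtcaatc

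The 44 genes held 26 E2F-type matches, 15 of them beginning before the start site and 11 after it. *Mcm6* had 3, at positions -110, -106 and -47, and *Mcm5* had a pair at -153 and -149. Both of the *Mcm3* matches lay after the start site, at positions 20 and 39. Among the genes with a match, 14 of 19 were higher by 1.5-fold or more with *Flcn* siRNA, a size that 5.87% of all genes above the filter reached in that direction, and their median log2 ratio was 0.73. Among the measured genes with a window but no match, 10 of 24 were higher, with a median of 0.41. As the members were chosen on this contrast, these counts are a description only, and the split by match was not tested. The genes with a match also included *Orc3*, *Pole4* and *Pold3*, with log2 ratios of 0.21, 0.08 and 0.06.

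**Figure D1:**
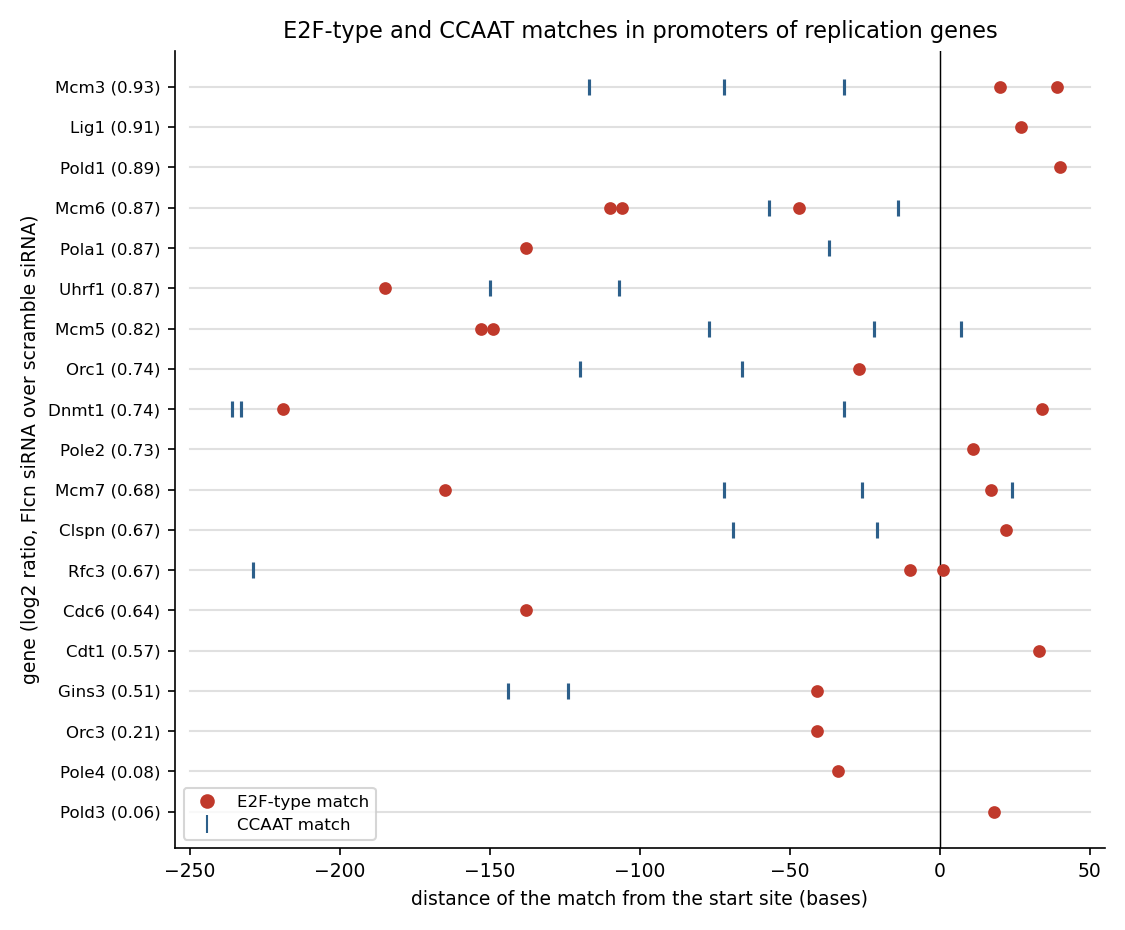
Position of E2F-type (red points) and CCAAT (blue bars) matches around the start site, in bases, for the 19 replication genes with an E2F-type match, ordered by the log2 ratio given in parentheses; where a gene has several windows, those with an E2F-type match are drawn. The *Mcm6* row holds 3 E2F-type matches, all before the start site, and the rows of *Orc3*, *Pole4* and *Pold3* at the bottom show that a match also occurs with a log2 ratio under 0.3.

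On the *Flcn* siRNA array 30 of the 52 genes were higher by 1.5-fold or more and none was lower by as much. Of all 10285 genes above the filter, 5.87% were higher and 5.54% lower by that amount, and since the members were chosen on this contrast the difference in share is a description only. The log2 ratio, *Flcn* siRNA over scramble siRNA, was above 0 for 51 of the 52 genes, against 51.7% of all genes. Its median was 0.65, which is 1.57-fold, against 0.01 for all genes. The differences were moderate in size: the 25th percentile of the log2 ratios was 0.37 and the 75th was 0.80. At the probe sets used and under the deposited scaling, only *Cdc7* reached 2-fold. *Fen1* lay just above 1.5-fold (1.51-fold), and *Pole3* (1.49-fold), *Cdt1* (1.48-fold) and *Prim2* (1.48-fold) lay just below it. With both arrays scaled to their median signals, which lowers every log2 ratio by 0.087, 22 of the 52 were higher by 1.5-fold, against 4.06% of all genes, and 48 lay above 0. Under that scaling the higher genes made up 34.0% of all genes past 1.5-fold, in place of 51.4%.

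**Figure D2:**
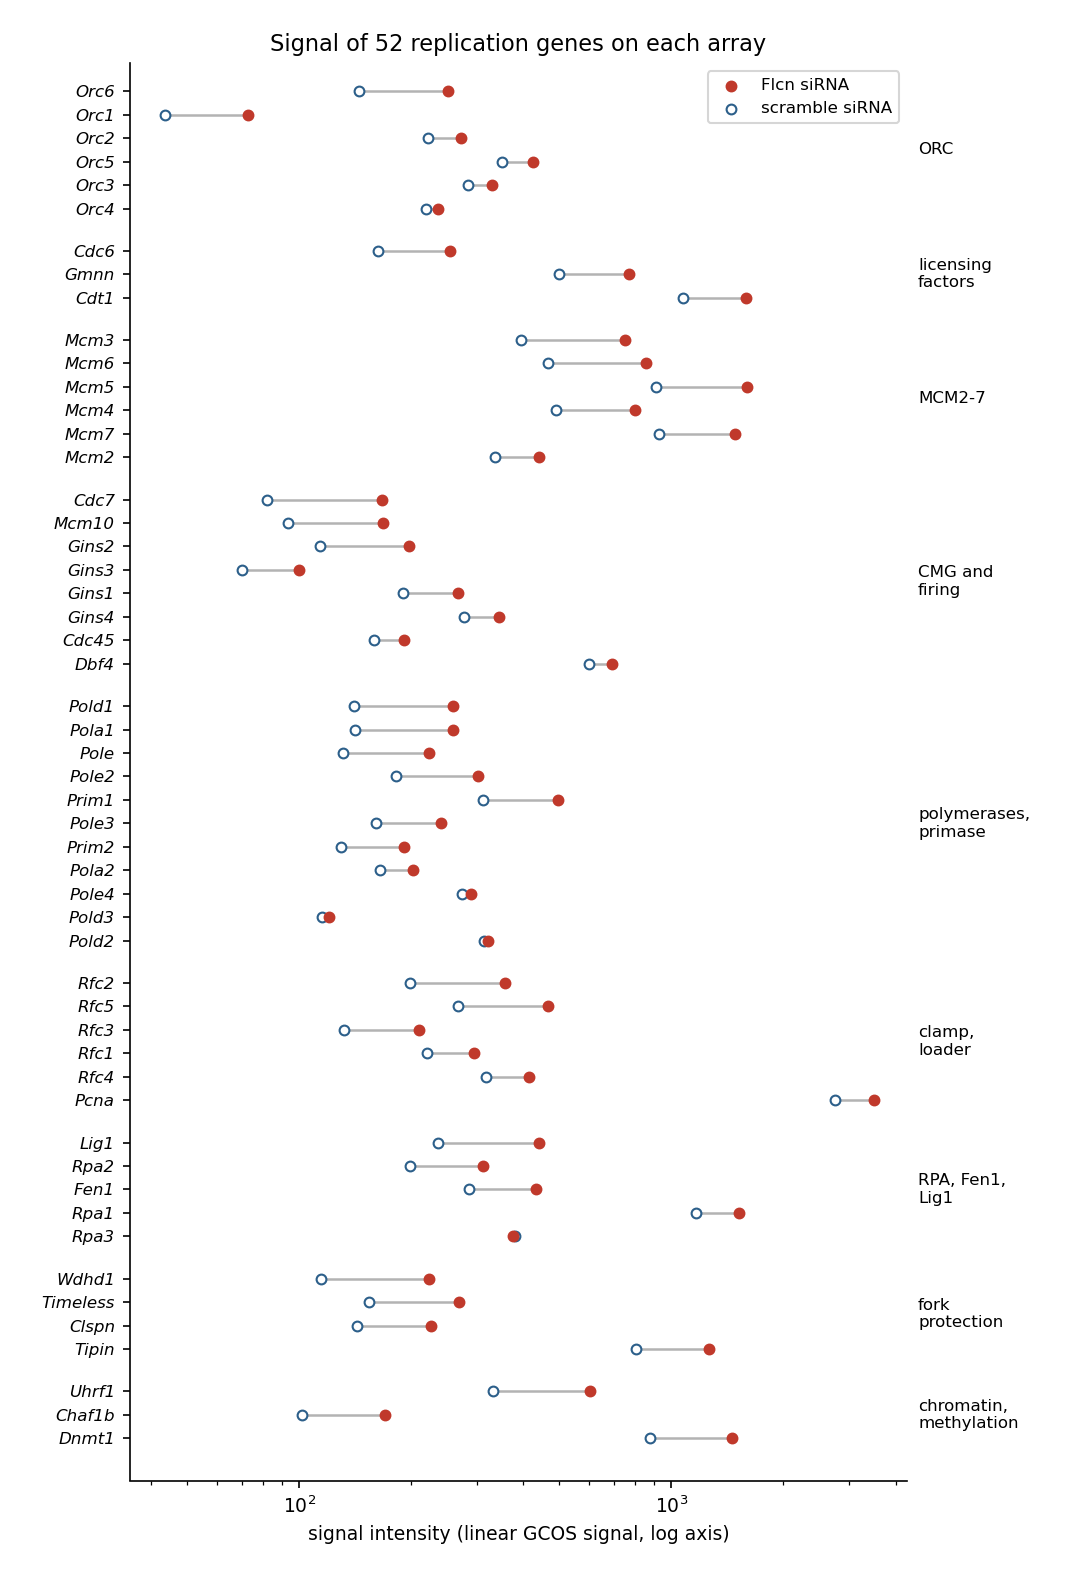
Linear signal intensity of each of the 52 genes on the *Flcn* siRNA array (red, filled) and the scramble siRNA array (blue, open), on a log axis, by role and, within a role, by log2 ratio. Each point is 1 probe set on 1 array; the red point lies to the right of the blue one for every gene except *Rpa3*.

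The origin recognition complex (ORC) binds origins and is the platform for licensing. By the size of the log2 ratio at the probe sets used, its subunits fell into 2 sets, a split that was not tested. *Orc1*, the subunit whose mRNA is known to follow E2F, had a signal of 72.8 with *Flcn* siRNA and 43.5 with scramble siRNA (1.67-fold). At its weaker probe set *Orc1* had 21.6 and 14.6 (1.48-fold), just under the 1.5-fold line. *Orc6*, the smallest subunit, had 251 and 145 (1.73-fold). The core subunits *Orc2*, *Orc3*, *Orc4* and *Orc5* had log2 ratios of 0.29, 0.21, 0.11 and 0.28, and none reached 1.5-fold. Of all genes above the filter 5.87% were higher by that size, so none of 4 is near that share. Over the whole complex 2 of 6 genes were past 1.5-fold. Moreover, *Orc2*, *Orc3* and *Orc4* were the only members with filtered probe sets on both sides of 0, with lowest log2 ratios of -0.07, -0.40 and -0.23. Their brightest probe sets, which stand for the gene here, were the ones above 0. With the mean of all probe sets, *Orc3* had -0.08 and *Orc4* -0.04, so no direction can be given for these 2 genes.

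Licensing needs Cdc6 and Cdt1, and geminin, the product of *Gmnn*, holds Cdt1 in check. The ATPase gene *Cdc6* had signals of 254 with *Flcn* siRNA and 163 with scramble siRNA (1.56-fold). The loading factor *Cdt1* had 1589.5 against 1072 (1.48-fold), and its 2 probe sets above the filter gave 0.57 and 0.58 on the log2 scale. Its inhibitor *Gmnn* had 771 against 498 (1.55-fold). The loading factors and the inhibitor thus lay on the same side, with log2 ratios between 0.57 and 0.64. With median scaling *Cdc6* and *Gmnn* came to 0.55 and 0.54, under the 1.5-fold line.

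The 6 genes of the MCM2-7 ring, the motor of the replicative helicase, all had log2 ratios above 0. Of them 5 were past 1.5-fold, against 5.87% of all genes above the filter. *Mcm3* had a signal of 752 with *Flcn* siRNA and 394 with scramble siRNA (1.91-fold), and *Mcm6* had 852 and 466 (1.83-fold). *Mcm5* had 1598 and 907 (1.76-fold). *Mcm4* was 1.63-fold and *Mcm7* 1.60-fold higher. *Mcm2*, whose protein also carries histones, was the lowest, with 441 and 336 (1.31-fold). The median log2 ratio of the ring was 0.76. Probe sets agreed in direction for each of the 6 genes. The 5 probe sets of *Mcm3* ranged from 0.44 to 1.24, the lowest being a weak one with signals of 18.0 and 13.3, while the 2 of *Mcm6* above the filter had 0.86 and 0.87 and the 2 of *Mcm2* had 0.39 and 0.46. The ring thus holds 1 gene that stood below the line at every probe set. The probe sets used for *Mcm3*, *Mcm5* and *Mcm7* are of types that Affymetrix marks as shared between transcripts or open to cross-hybridisation. *Mcm7* had no probe set designed for 1 transcript alone. With such probe sets the median of the other genes of the ring was 0.70.

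The step that turns a loaded ring into a moving helicase was less even. *Cdc7*, the catalytic subunit of the firing kinase, had the highest log2 ratio of all members at the probe sets used. Its signals were 167 with *Flcn* siRNA and 82.1 with scramble siRNA (2.03-fold). With median scaling its log2 ratio was 0.94, under 2-fold. With the mean of all probe sets above the filter it was 0.96, where *Pold1* had 1.18. The activating subunit of the kinase, *Dbf4*, had 691 against 601 (1.15-fold). The firing factor *Mcm10*, which shares a name but no membership with the ring, had 168 against 93.1 (1.80-fold). In the GINS complex, *Gins2* was 1.74-fold higher with 197 against 114, while *Gins3*, *Gins1* and *Gins4* had 1.42-fold, 1.41-fold and 1.24-fold. *Cdc45*, the other partner of the ring, had 191 against 159 (log2 ratio 0.26) at its brighter probe set and a log2 ratio of 0.86 at its weaker one, where the signals were 32.1 and 17.7. Of the 8 genes of this step 3 were past 1.5-fold, against 5.87% of all genes above the filter. The median of the 8 was 0.50 on the log2 scale.

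**Figure D3:**
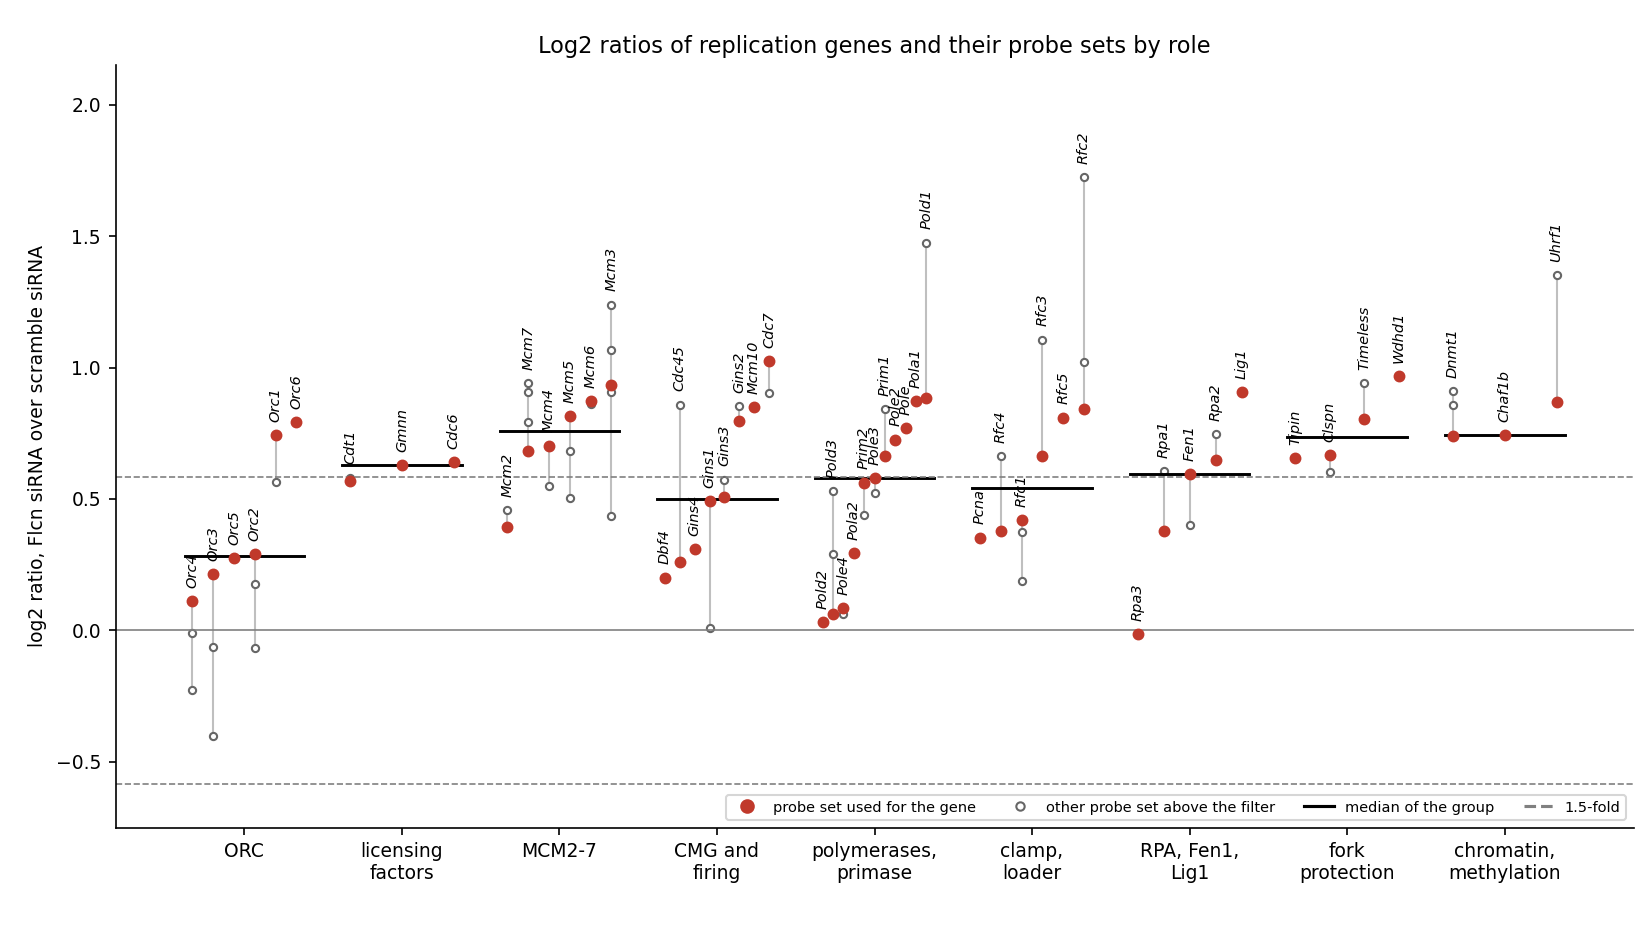
The 52 genes by role, each on the log2 scale as *Flcn* siRNA over scramble siRNA: red points are the probe sets used, small open points the other probe sets above the filter, grey lines their range, black bars group medians and dashed lines 1.5-fold. The red points of licensing factors, fork protection and chromatin genes lie between 0.57 and 0.97, and those of every other group are spread more widely.

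Among polymerase genes, the catalytic subunits stood above several of their accessory subunits. *Pold1*, which encodes the catalytic subunit of polymerase delta, the main lagging-strand enzyme, had a signal of 259 with *Flcn* siRNA and 140.4 with scramble siRNA (1.85-fold). *Pola1*, the catalytic subunit of the polymerase that starts each strand, had 258 and 141 (1.83-fold). *Pole*, the catalytic subunit of the leading-strand enzyme, had 223 and 131 (1.70-fold). All 3 were past 1.5-fold, and *Pold1* had 208 and 74.9 (2.78-fold) at its other probe set, the one designed for 1 transcript alone. The accessory subunits of polymerase delta differed from *Pold1*: *Pold2* had 322 and 314 (1.02-fold) and *Pold3* 120 and 115 (1.04-fold). *Pold3* had log2 ratios of 0.53 and 0.29 at its other probe sets, so its small ratio rests on the probe set used. In polymerase epsilon the noncatalytic subunit *Pole2* was 1.65-fold higher, while the histone-fold subunits *Pole3* and *Pole4* had log2 ratios of 0.58 and 0.08. The partners in that histone-fold pair differed at each of their probe sets above the filter, with 0.52 and 0.58 for *Pole3* and 0.06 and 0.08 for *Pole4*. The primase genes *Prim1* and *Prim2*, which make the RNA primers, had 1.58-fold and 1.48-fold, and *Pola2*, the regulatory subunit of polymerase alpha, had 1.23-fold. With median scaling *Pold2*, *Pold3* and *Pole4* had log2 ratios of -0.05, -0.02 and -0.00, so that their direction is not settled. The median log2 ratio of the 11 genes was 0.58, and 5 were higher by 1.5-fold or more, against 5.87% of all genes above the filter.

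*Pcna*, the sliding clamp that tethers polymerases to DNA, had signals of 3512 with *Flcn* siRNA and 2749 with scramble siRNA (1.28-fold), at its only probe set. Replication factor C opens the clamp and places it on DNA. Of its genes, *Rfc2* had 357 against 199 (1.79-fold), *Rfc5* had 467 against 267 (1.75-fold), and *Rfc3* had 209 against 132 (1.59-fold). *Rfc1*, the large subunit, had a log2 ratio of 0.42 and *Rfc4* one of 0.38. The other probe sets of *Rfc2* gave log2 ratios of 1.02 and, where the scramble siRNA signal lay under its array's median, at least 1.72, both at much weaker signals, and those of *Rfc3* and *Rfc4* gave 1.11 and 0.66. Hence *Rfc4* lay on either side of the 1.5-fold line according to the probe set.

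Replication protein A coats single-stranded DNA at the fork. Its middle subunit *Rpa2* had a signal of 312 with *Flcn* siRNA and 199 with scramble siRNA (1.57-fold), and its large subunit *Rpa1* had 1518 and 1167 (log2 ratio 0.38, and 0.61 at its other probe set). The smallest subunit *Rpa3* had 376 and 379, a log2 ratio of -0.01. The 3 subunits of 1 complex were therefore spread over 0.66 on the log2 scale. Of the enzymes that finish lagging-strand fragments, the ligase *Lig1* had 441 and 235.5 (1.87-fold) and the flap nuclease *Fen1* had 432 and 286 (1.51-fold), though its other probe set gave 0.40 on the log2 scale.

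All 4 genes of fork protection were higher by 1.5-fold or more, against 5.87% of all genes above the filter. *Wdhd1*, the mammalian relative of yeast Ctf4 that ties polymerase alpha to the helicase, had signals of 224 with *Flcn* siRNA and 114 with scramble siRNA (1.95-fold). *Timeless* and *Tipin*, whose products form a pair that travels with the fork, had 269 against 154 (1.75-fold) and 1261 against 801 (1.57-fold). *Clspn*, which encodes the checkpoint mediator claspin, had 227 against 143 (1.59-fold). Each probe set of these genes above the filter also lay past 1.5-fold. With median scaling the lowest, *Tipin* and *Clspn*, had log2 ratios of 0.57 and 0.58, under the 1.5-fold line. That left 2 of the 4 genes past it, against 4.06% of all genes under that scaling.

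The 3 measured genes that restore chromatin and DNA methylation behind the fork were higher as well. All 3 were past 1.5-fold, against 5.87% of all genes above the filter. *Uhrf1*, which reads hemimethylated DNA, had a signal of 604 with *Flcn* siRNA and 331 with scramble siRNA (1.83-fold), and its other probe set had 241 and 94.3 (2.55-fold). *Dnmt1*, the maintenance methyltransferase that Uhrf1 brings to new DNA, had 1457 and 873.5 (1.67-fold), with log2 ratios from 0.74 to 0.91 over 3 probe sets. *Chaf1b*, a subunit of the chromatin assembly factor that follows PCNA, had 170.4 and 102 (1.67-fold).

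Probe sets of a gene and subunits of a complex both varied in their log2 ratios. Between the probe sets of a single gene the log2 ratios had an SD with a median of 0.13 over the 33 members that had 2 or more of them above the filter, and of 0.19 over the 5034 such genes of the array. It is a technical spread within 1 pair of arrays and no replicate error. The range between the highest and the lowest subunit was 0.85 in polymerase delta, 0.82 between *Cdc7* and *Dbf4*, 0.69 in polymerase epsilon, 0.68 in ORC, 0.66 in replication protein A, 0.58 in polymerase alpha and primase, 0.54 in MCM2-7, 0.49 in GINS and 0.47 in replication factor C. It was 0.15 between *Timeless* and *Tipin*. A range grows with the number of subunits and is not on the scale of the SD above, and none of these differences was tested. The 5 probe sets of *Mcm3* alone covered more of the scale, from 0.44 to 1.24, than the 6 genes of the ring. Of the 98 probe sets of members above the filter, 92 had a log2 ratio above 0 and 54 were higher by 1.5-fold or more, while 14 other probe sets lay under the filter. Among the 33 genes, 30 had every such probe set above 0, and 13 had every one past 1.5-fold. For 8 genes the probe sets lay on both sides of the 1.5-fold line. Shares of this kind were not computed over all probe sets of the array. By gene, 51.7% of all genes above the filter had a log2 ratio above 0 and 5.87% were higher by 1.5-fold or more.

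The members were spread over a wide range of signals, from 72.8 for *Orc1* to 3512 for *Pcna* on the *Flcn* siRNA array and from 43.5 to 2749 on the scramble siRNA array. Across the 52 genes the log2 ratio had a Spearman correlation of -0.14 with the mean signal, as a description over genes that share the same 2 arrays. All of these signals lay well above the array medians of 13.6 and 12.8, so none of the ratios used was set by the floor on low values. Signals of different probe sets are not on 1 scale, and no level is compared between genes.

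**Figure D4:**
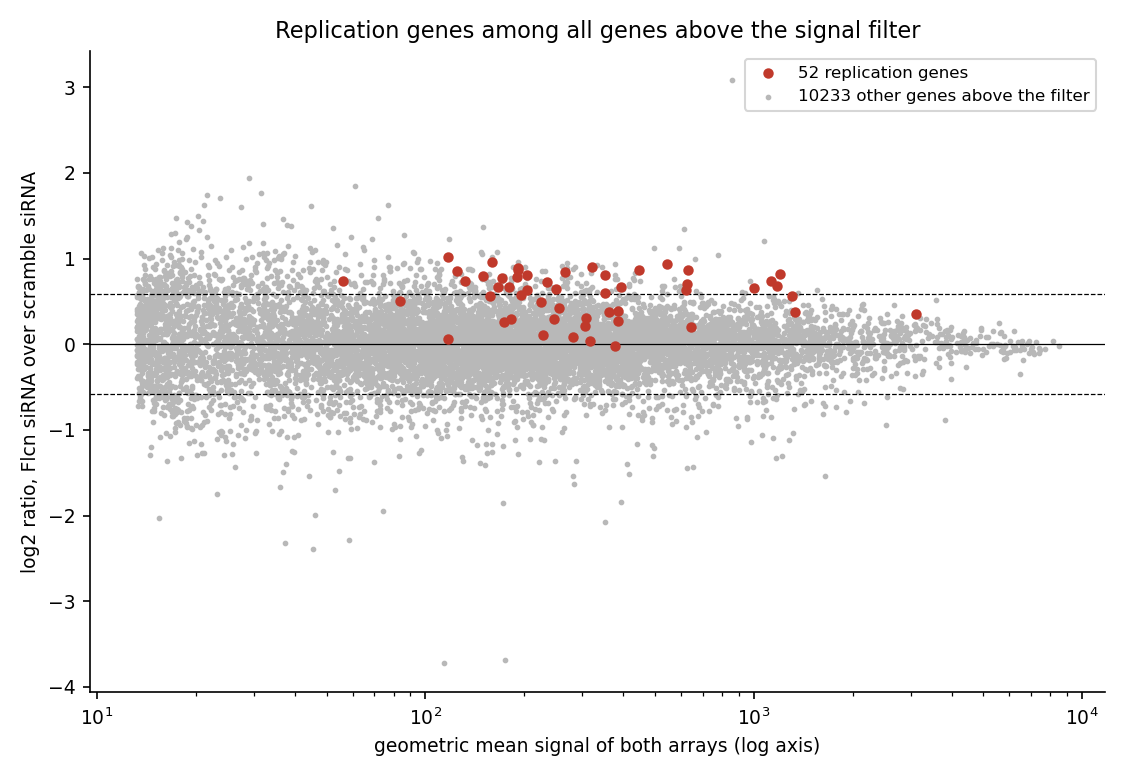
Log2 ratio, *Flcn* siRNA over scramble siRNA, against the geometric mean signal of both arrays (log axis) for the 52 replication genes (red) and the other genes above the filter (grey); dashed lines mark 1.5-fold. The red points lie from -0.01 to 1.02 and cover most of the signal range.

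Other genes of the replication pathway were taken from lists by function, which were also drawn up with earlier results of these arrays known and are described on the same terms as the members. Of 35 measured nuclear genes of origin firing, fork maturation and replication-coupled chromatin, 13 were higher by 1.5-fold or more (37.1%, against 5.87% of all genes above the filter) and none was lower by as much. Their median log2 ratio was 0.44. In the firing group *Donson*, a fork factor, was the highest with signals of 183 with *Flcn* siRNA and 99.1 with scramble siRNA (1.84-fold, but with a log2 ratio of at most -0.17 at a weak second probe set whose *Flcn* siRNA signal lay under its array's median), and the acetyltransferase *Kat7* the lowest (1.05-fold). In the maturation group the cohesin acetyltransferase *Esco2* had 181 against 77.3 (2.34-fold). *Pold4*, the smallest subunit of polymerase delta, had 185 against 258.5, a log2 ratio of -0.49, which was the lowest of the group. The 4 genes of polymerase delta thus ranged from -0.49 for *Pold4* to 0.89 for *Pold1*. In the chromatin group *Hells*, a remodeler, was the highest (1.78-fold), with log2 ratios of 0.78 and 0.07 at its other probe sets. *Tonsl*, a reader of new histones, was the lowest (log2 ratio -0.02). *Ssrp1* was not analysed here.

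Polymerases and helicases with other duties were listed as well. Of 9 genes of mitochondrial DNA replication none was past 1.5-fold, which is near the share of all genes above the filter (5.87% higher and 5.54% lower), and the median log2 ratio was 0.10. The mitochondrial polymerase *Polg* had a signal of 156 with *Flcn* siRNA and 165 with scramble siRNA, a log2 ratio of -0.09, and *Polrmt*, the mitochondrial RNA polymerase, had the highest ratio (0.30, with -0.13 at its other probe set). Of 8 measured translesion and repair polymerases, 1, *Polk*, was higher (1.55-fold), a count also near that share, and *Polm* had the lowest log2 ratio, -0.33. *Polq* lay under the filter. The MCM relatives *Mcm8* and *Mcm9*, which act in recombination, had log2 ratios of 0.49 and -0.01. These lists were not compared with the members by a test, since genes of 1 pair of arrays are not replicates.

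**Figure D5:**
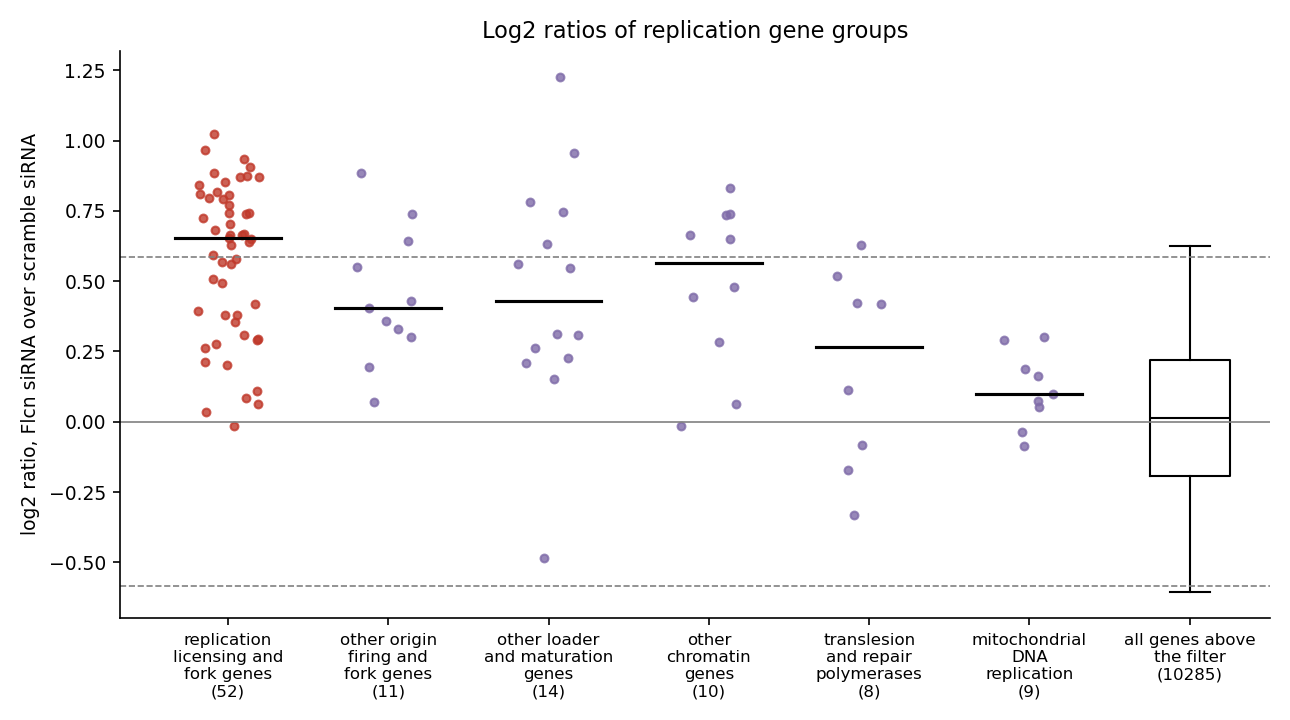
Log2 ratio, *Flcn* siRNA over scramble siRNA, for the 52 replication licensing and fork genes (red), for other replication gene groups (purple) and for all 10285 genes above the filter (box from the 25th to the 75th percentile, whiskers from the 5th to the 95th). Black bars are medians and numbers in parentheses are genes; medians run from 0.65 in the first group to 0.10 for mitochondrial DNA replication, and dashed lines mark 1.5-fold.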

How the data were processed

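Total RNA of RAW264.7 cells was hybridised to 2 Affymetrix mouse whole-genome expression arrays, 1 per group, and the authors processed them with GCOS, per the methods and labels. The deposited values are linear signal intensities, 1 per probe set and array; the scaling target is not given in the sources used here. Trimmed by 2% on either side, both arrays average 100. There are no counts, so depth does not apply. Of 45101 probe sets, 64 are controls, and the platform annotation gives 34958 1 gene and 932 several, while 9211 are not listed. Symbols were updated through Entrez IDs to RefSeq GRCm38.p6 for 34754 probe sets. The brightest probe set by geometric mean stood for each gene. Lower signals than the median of their array (13.6 with *Flcn* siRNA, 12.8 with scramble siRNA) were raised to it, and genes with a geometric mean of at least 13.2 passed the filter. A gene was called by size alone, at 1.5-fold.

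Members, role groups and lists were chosen with earlier results of these data known. Any member could be named, and of other lists the highest and lowest genes. Alternatives were 2 other scalings, 3 other summaries of probe sets, 2 other floors, 2 other filters and thresholds of 1.3-fold and 2-fold. A planned search of protein motifs was not run. The functions were tested on simulated data. Scripts used scipy 1.17.1, pandas 2.3.3 and numpy 2.4.6 under Python 3.11.15, and figures matplotlib 3.10.9.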

Additional observations from a re-analysis of the deposited data

How the results depend on the processing

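Over the 9 other settings of scaling, probe set summary, floor and filter, the number of replication genes higher by 1.5-fold or more stayed between 22 and 30, none was lower by as much under any of them, and the median log2 ratio of the members lay between 0.57 and 0.66. The lowest count came with both arrays scaled to their median signals. With probe sets designed for 1 transcript alone, 45 members were measured and 24 were higher, against 6.19% of all genes. With the signal filter at the 75th percentile, 50 members passed and 29 were higher, against 3.14% of all genes that passed. In the main setting the count at a threshold of 2-fold was 1, *Cdc7*, against 0.846% of all genes above the filter. At 1.3-fold it was 38, against 13.5%. With median scaling *Cdc7* had a log2 ratio of 0.94, under 2-fold. The medians of the role groups moved by less than 0.19, the median SD between probe sets, under every setting of the 9. No member called higher at 1.5-fold changed sign under the 9. The log2 ratio of a single member moved by more than 0.19 in 14 cases and by less in 445. The 14 concern 10 genes and came with another choice of probe set, under which *Orc3* (-0.08) and *Orc4* (-0.23) changed sign, and *Pold1* came to 1.47, *Rfc3* to 1.11 and *Pold3* to 0.53 with probe sets designed for 1 transcript. Median scaling alone put *Pold2* (-0.05), *Pold3* (-0.02) and *Pole4* (-0.00) below 0. No paired analysis was possible because each group holds 1 array. The number of arrays limits every value here.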

Other observations

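The promoter sequences searched in the replication genes were also looked at in the other genes above the signal filter, a comparison chosen after the values of the members were seen. Only the members were left out. The nuclear replication genes listed outside the members, 13 of 35 of them higher by 1.5-fold or more, stayed in where they had a window. Of 356 such genes with an E2F-type sequence in their RefSeq promoter window, 63.2% had a log2 ratio above 0 and 8.71% were higher by 1.5-fold or more with *Flcn* siRNA, against 50.7% and 5.28% of 8045 genes without one. The share lower by 1.5-fold or more was 2.25% with the sequence and 5.53% without it. The median log2 ratio was 0.10 with the sequence and 0.01 without it. Split into 3 bands by the G+C content of the window, the share higher by 1.5-fold was 7.06% with the sequence and 5.84% without it in the lowest band, 10.1% and 5.78% in the middle band, and 8.20% and 4.22% in the highest band. These are shares of genes on 1 pair of arrays and were not tested.

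For the sequence TCACGTGA, a form of the motif bound by Tfe3 and its relatives, 196 genes outside the members had a match. Their median log2 ratio was -0.03, and 3.06% were higher by 1.5-fold or more, against 0.01 and 5.48% for the genes without a match. The share lower by 1.5-fold or more was 2.55% with the sequence and 5.46% without it. Of the 44 replication genes with a window, 2 had this sequence (4.55%), against 2.33% of the genes above the filter. They were *Fen1* and *Chaf1a*, and *Chaf1a* was not measured. The shorter sequence CACGTG was found in 7 of the 44 (15.9%), against 12.1% of the genes above the filter. The CHR element, searched as TTTGAA, was found in 8 of the 44 (18.2%), against 14.4% of the genes above the filter.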
